A study of Mus musculus with 6 samples.

Results

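The 33 genes described here are markers of macrophages and of leukocytes in general, measured in cultures of mouse cartilage cells. They were taken by gene name from the deposited expression table, and all 33 had a row among its 55401 genes. The study profiled poly(A) RNA by sequencing from primary chondrocytes of mouse cartilage, in 3 Nf2-knockout libraries and 3 control libraries. Nf2 encodes merlin, a membrane-linked scaffold protein upstream of the Hippo pathway. Both groups carry the floxed Nf2 alleles according to the series design, and the knockout libraries differ from the control libraries by the deletion. The cultures of both groups were differentiated, and the names of all 6 libraries carry the tag D7, which the labels do not explain. The treatment field of the knockout libraries also names TCF21 overexpression, while that of the control libraries says control. The Cre line or virus, its promoter, the differentiation agent, the strain, the age and sex of the animals and the number of animals behind each library are not given in the sources used here. Whether replicates came from separate cultures is not given either, so the p-values below weigh differences against a spread between libraries that could be technical only.

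Macrophages are tissue phagocytes that take up debris, microbes and dying cells. Their survival depends on CSF1R, a receptor tyrosine kinase for the cytokines CSF1 and IL-34, and their gene programme depends on the transcription factor PU.1, encoded by Spi1. Cartilage itself holds few such cells, while the bone marrow and joint lining around it hold many. In a bulk library, fewer cells of a type and less RNA per cell cannot be told apart, and this holds for every level below.

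The libraries held 50906043 to 63748798 reads assigned to genes, and 21289 to 22108 genes had a count in each. Nf2 had 4592, 6351 and 6503 counts in the knockout libraries, against 7448, 7153 and 6979 counts in the control libraries. It fell by 0.41 on the log2 scale in knockout relative to control libraries (SE 0.0866, adjusted p = 0.0305, edgeR quasi-likelihood test), which left most of its RNA in place. That call was lost whenever 1 library was left out, at adjusted p from 0.0518 to 0.123. Tcf21 had 0, 2 and 0 counts in the knockout libraries and 0 in every control library. Chondrocyte genes were present in both groups: Col2a1, the main collagen of cartilage, had 701, 719 and 324 CPM (counts scaled to library size) in the knockout libraries, against 174, 250.2 and 269 CPM in the control libraries. Collagen genes shared with fibroblasts were more abundant still, with Col1a1 at a mean of 2945 CPM in knockout and 2932 CPM in control libraries.

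As a group, the macrophage and leukocyte markers were lower in the Nf2-knockout libraries. Summed over the 33 genes they reached 135, 103 and 59.6 CPM in the knockout libraries, against 189.7, 494 and 248 CPM in the control libraries. Every knockout library was therefore below every control library, and the knockout mean of 99.3 CPM was 32.0% of the control mean of 310.4 CPM. Lyz2 alone made up much of that sum. Without it the sums were 90.0, 71.4 and 47.1 CPM in the knockout libraries, against 130.0, 288 and 165 CPM in the control libraries, or 35.7% of control. Without both Lyz2 and Cd68, which left 31 genes, the knockout mean was 28.3% of the control mean.

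**Figure D1:**
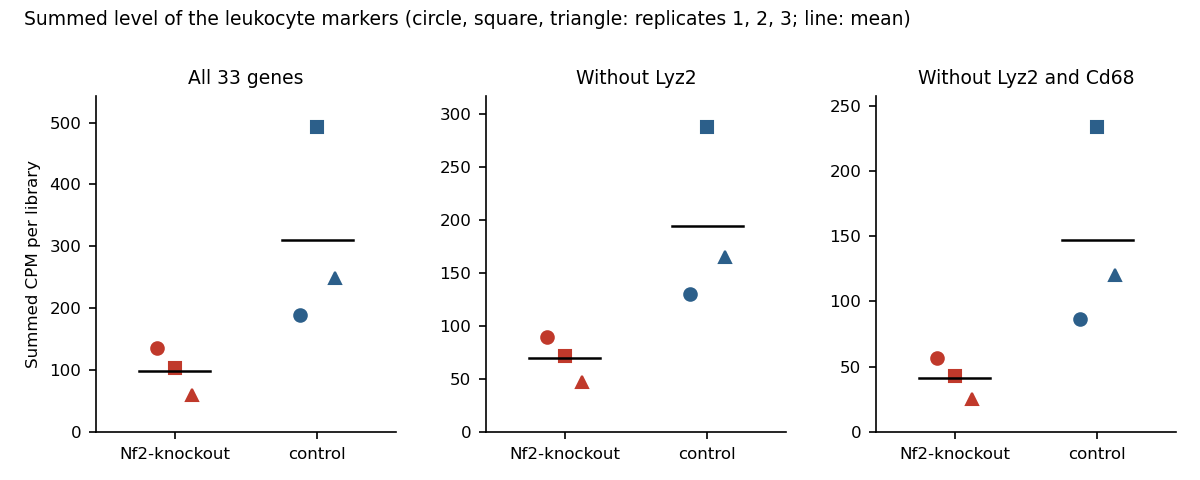
Summed level of the marker genes in each library, in CPM, for all 33 genes, without Lyz2, and without Lyz2 and Cd68. Each point is 1 library, with Nf2-knockout left of control, and horizontal bars mark the group means. Knockout libraries lie below all control libraries in each panel, and control replicate 2 lies highest, at 494 CPM over all 33 genes.

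Among the 33 genes, 31 had enough counts to be tested, and 12 of these fell at an adjusted p below 0.05, while 0 rose and 19 did not pass. Over all genes tested, 5.18% fell and 4.11% rose, 9.29% together. These were 944 genes lower and 749 higher, and scaling by library totals alone gave 707 lower and 1130 higher, with the same number of 12 markers lower. The genes that fell were Csf1r, Mrc1, Cd68, Cd84, Cd22, Clec12a, Gpr65, Mpeg1, Laptm5, Ms4a7, Was and Wdfy4. All 31 tested genes had a negative log2 fold change, with a median of -2.18 against -0.01 over all genes tested. At an unadjusted p below 0.05, 23 of the 31 were lower, beside 13.2% of all genes tested. Every knockout library lay below every control library for 25 of the 31 tested genes, beside 17.4% of all genes tested. Counting the genes too low to test, the number was 26 of 33, beside 12.6% of the genes with any count. The markers and the gene lists below were chosen with earlier results of these data known, so such comparisons describe them and test nothing.

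The filter on low counts has to be kept in view with these numbers. It asked for at least 0.166 CPM in 3 or more libraries, and 5 of the tested markers reached that level in no knockout library. These were Cd22, Clec12a, Gpr65, Was and Wdfy4, which entered the test through the control libraries alone. In 21 of the tested markers all 3 knockout libraries reached the level, and 7 of these fell, namely Csf1r, Cd68, Mrc1, Cd84, Mpeg1, Laptm5 and Ms4a7. The median log2 fold change over the 21 genes was -1.96. The share of all genes that fell was not counted under this condition, so the count and median have no like comparison. The 2 genes that could not be tested were Cx3cr1 and Aif1.

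**Figure D2:**
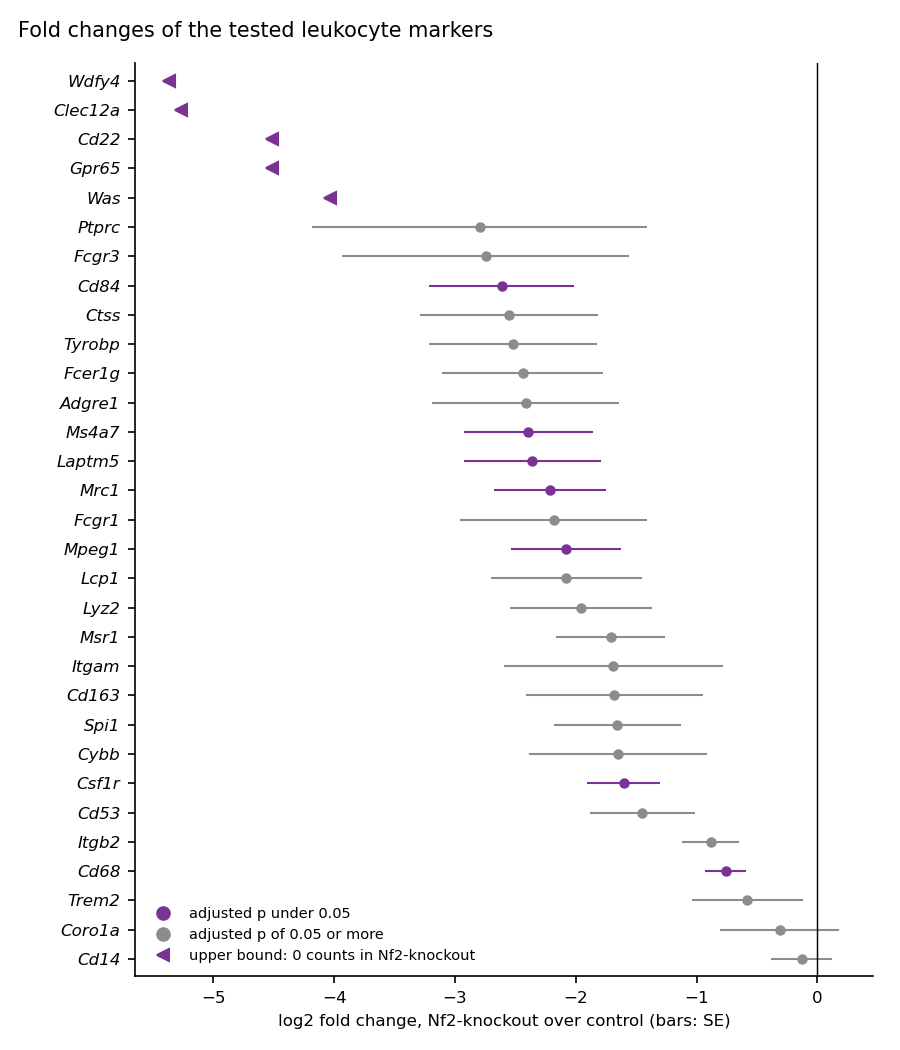
Log2 fold change of Nf2-knockout over control for the 31 tested markers, ordered by size, with bars of 1 SE. Purple symbols mark genes with an adjusted p below 0.05, grey ones the others, and left-pointing triangles mark genes with 0 counts in all knockout libraries, drawn at the bound that a floor of 3 counts allows. All 31 genes lie left of 0, and Cd14 lies nearest to it at -0.13.

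The size of the shift varied with the library. Control replicate 2 was the highest of the 6 libraries for 28 of the 33 genes. Control replicate 1 was the lowest control library for 27. Among the 25 markers counted in all 6 libraries, control replicate 2 had a median of 3.02 times the level of control replicate 1, with a range from 0.461 to 5.66 times. The knockout libraries were spread as well: replicate 1 was highest for 21 genes and replicate 3 lowest for 22, and replicate 3 had a median of 0.391 times the level of replicate 1. The 10 chondrocyte genes summed to 1359.6, 1453 and 699 CPM in the knockout libraries, against 598, 852 and 813 CPM in the control libraries. Knockout replicate 3 was thus lowest of its group and control replicate 2 highest of its group for these genes too, by smaller factors, and the part this plays in the marker levels was not tested.

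The number of calls was smaller in every fit with 1 library left out, over all genes as well as over the markers, and whether this came from the library or from having fewer libraries was not tested. Without control replicate 2, 0 of 31 tested markers passed, although 20 were lower at an unadjusted p below 0.05 and the median log2 fold change was -1.57. Of all genes tested, 2.02% fell in that fit. Without control replicate 3, 0 passed as well, beside 3.14% of all genes, with 23 at an unadjusted p below 0.05 and a median of -2.26. Leaving out control replicate 1 gave 5 markers that fell, beside 2.79% of all genes. Leaving out knockout replicate 1 gave 2 markers beside 1.7% of all genes, leaving out replicate 2 gave 3 beside 3.75%, and leaving out replicate 3 gave 2 beside 2.16%. Clec12a and Wdfy4 were called in every one of these fits that gave a call. They were the only calls without knockout replicate 1 or 3, and Csf1r was the third without knockout replicate 2. Both had entered the main test through the control libraries alone, so their calls carry that selection and support nothing by themselves. With all 6 libraries, DESeq2 called 20 of the 33 markers lower and 0 higher, beside 6.63% lower of the 20235 genes given an adjusted p. The 33 count every marker, with or without an adjusted p. A limma-trend fit on log2(FPKM + 0.1) called 3 of 25 lower, beside 3.43% of all genes, and a fit with the replicate number as a block called 2 of 31, beside 2.93%. The summed level without control replicate 2 stood at 45.4% of control.

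Csf1r and Spi1 stand at the head of the lineage. Csf1r, on chromosome 18 at 61100598 to 61131134, had 1.44, 1.88 and 1.47 CPM in the knockout libraries, against 3.41, 6.58 and 4.57 CPM in the control libraries. The groups did not overlap, and the knockout libraries lay close together. It fell by 1.60 on the log2 scale in knockout libraries (SE 0.303, adjusted p = 0.0219), to 32.9% of the control mean. Leaving out 1 library at a time, the call held in 2 of 6 fits, those without knockout replicate 2 and without control replicate 1, with adjusted p from 0.0287 to 0.0850. Spi1, on chromosome 2 at 91082390 to 91114366, had 0.364, 0.475 and 0.449 CPM in the knockout libraries, against 0.708, 2.34 and 1.03 CPM in the control libraries. Its groups did not overlap either, but its difference of -1.65 did not pass (SE 0.528, adjusted p = 0.104), and 1 control library lay well above the other 2.

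**Figure D3:**
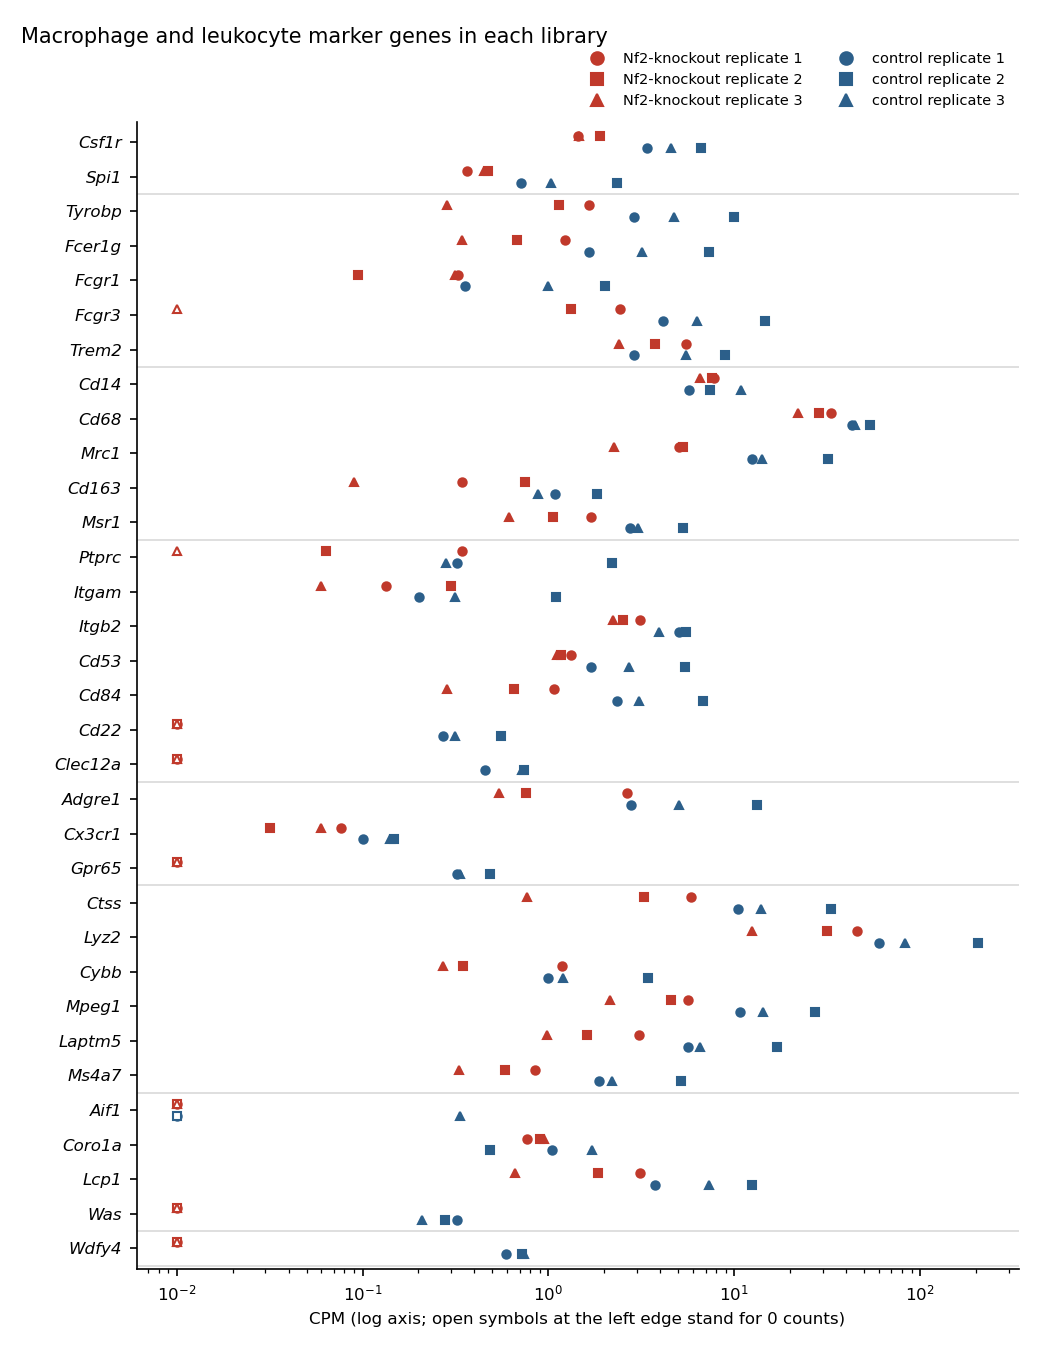
Level of each of the 33 markers in each library, as CPM on a log scale, grouped by role. Red symbols are the 3 Nf2-knockout libraries and blue symbols the 3 control libraries, with the shape giving the replicate and open symbols at the left edge standing for 0 counts. Lyz2 and Cd68 lie highest on this scale, and 6 genes have 0 counts in all knockout libraries.

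PU.1 binds purine-rich DNA with a GGAA core and helps to drive many genes of this kind, so the sequence before some of the marker genes is shown. Promoters from RefSeq on GRCm38.p6, running from 250 bases before to 50 after each gene's start, matched 26 of the 33 markers by symbol. The other 7 were Csf1r, Spi1, Tyrobp, Cd14, Msr1, Itgb2 and Adgre1. The 150 bases before the start are given 5′ to 3′ for 6 genes. Clec12a, Mrc1, Laptm5 and Gpr65 fell, and each holds the letters GAGGAA within 70 bases of the start. Trem2, which did not pass the test, and Mpeg1, which fell, are set beside them because the first holds the letters and the other does not. The 6 were picked after the matches had been seen. Starts are those of RefSeq and can lie inside the gene span of the expression table, as for Clec12a. Capitals mark GAGGAA or its reverse complement TTCCTC.
Clec12a, chr6:129350094-129350243, plus strand: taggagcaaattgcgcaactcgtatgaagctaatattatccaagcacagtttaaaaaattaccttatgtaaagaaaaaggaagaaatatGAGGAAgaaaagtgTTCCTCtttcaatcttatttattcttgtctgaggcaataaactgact
Mrc1, chr2:14229264-14229413, plus strand: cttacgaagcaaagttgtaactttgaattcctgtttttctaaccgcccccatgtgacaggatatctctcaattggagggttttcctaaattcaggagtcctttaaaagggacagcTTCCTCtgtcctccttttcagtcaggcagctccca
Laptm5, chr4:130913166-130913315, plus strand: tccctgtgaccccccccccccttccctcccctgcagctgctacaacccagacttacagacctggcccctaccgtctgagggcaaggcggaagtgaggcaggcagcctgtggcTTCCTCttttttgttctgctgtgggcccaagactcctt
Gpr65, chr12:98268485-98268634, plus strand: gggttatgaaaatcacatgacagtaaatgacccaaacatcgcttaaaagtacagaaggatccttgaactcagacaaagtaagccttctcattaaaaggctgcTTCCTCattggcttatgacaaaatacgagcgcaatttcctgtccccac
Trem2, chr17:48346251-48346400, plus strand: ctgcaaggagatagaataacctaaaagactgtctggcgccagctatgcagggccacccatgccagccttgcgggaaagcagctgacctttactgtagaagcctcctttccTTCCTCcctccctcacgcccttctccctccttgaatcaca
Mpeg1, chr19:12460620-12460769, plus strand: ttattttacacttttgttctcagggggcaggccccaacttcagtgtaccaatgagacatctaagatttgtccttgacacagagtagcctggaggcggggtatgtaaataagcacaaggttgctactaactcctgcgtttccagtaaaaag

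In the Clec12a sequence the matches begin 61 and 47 bases before the start. Single matches begin 35 bases before the start in Mrc1, 38 in Laptm5, 48 in Gpr65 and 40 in Trem2. Over the windows of 300 bases and on both strands, the longer site GAGGAAGT was found in 2 of the 26 marker promoters, Cd53 and Ctss, beside 3.69% of the 27025 promoters in the table. The shorter GAGGAA, which GAGGAAGT contains and which was added after the longer site had been counted, was found in 17 of 26 (65.4%), beside 31.3% of all promoters. TGTGGT, bound by RUNX factors, was found in 9 of 26 beside 18.9% of all promoters. TTGCNNAA, bound by C/EBP factors, was found in 4 of 26 beside 12.2%. These counts describe letters in a window and not binding.

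Tyrobp and Fcer1g encode short adaptor proteins that pass signals from immune receptors through ITAM motifs. Tyrobp, on chromosome 7 at 30413760 to 30417582, had 1.65, 1.14 and 0.284 CPM in the knockout libraries, against 2.88, 9.92 and 4.71 CPM in the control libraries. The groups did not overlap, and the difference of -2.52 on the log2 scale did not pass (SE 0.695, adjusted p = 0.0702). Fcer1g, the gamma chain of Fc receptors, lies on chromosome 1 at 171229572 to 171234365. It had 1.23, 0.681 and 0.344 CPM in the knockout libraries, against 1.65, 7.33 and 3.17 CPM in the control libraries. Its difference of -2.44 also missed the threshold (SE 0.667, adjusted p = 0.0684). Knockout replicate 1 and control replicate 1 were close together for Fcer1g, and the gap came from the other libraries.

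The receptors that use these adaptors were lower by varying amounts, and none passed. The high-affinity IgG receptor Fcgr1 had 0.325, 0.0950 and 0.314 CPM in the knockout libraries, against 0.354, 2.00 and 0.998 CPM in the control libraries. The low-affinity IgG receptor Fcgr3 had 2.43, 1.33 and 0 CPM in the knockout libraries, against 4.12, 14.7 and 6.27 CPM in the control libraries. Fcgr genes resemble one another in sequence, so reads could be split between them. Trem2, a lipid receptor that signals through TYROBP, had 5.48, 3.74 and 2.40 CPM in the knockout libraries, against 2.88, 8.96 and 5.50 CPM in the control libraries. Its groups overlapped, and its knockout mean was 66.9% of control (log2 -0.58, SE 0.459, adjusted p = 0.499), against 17.5% for Tyrobp.

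Of the scavenger and pattern recognition receptors, Mrc1 and Cd68 fell. Mrc1 encodes the mannose receptor, an endocytic receptor for glycoproteins, and lies on chromosome 2 at 14229392 to 14332057. It had 5.04, 5.32 and 2.26 CPM in the knockout libraries, against 12.5, 31.8 and 14.1 CPM in the control libraries. The groups did not overlap, and the mean fell to 21.6% of control (log2 -2.21, SE 0.464, adjusted p = 0.0306). Leaving out 1 library at a time, the Mrc1 call held only without control replicate 1, with adjusted p from 0.0458 to 0.0889. Cd68, a lysosomal glycoprotein of macrophages on chromosome 11 at 69664213 to 69666153, had 33.1, 28.7 and 22.0 CPM in the knockout libraries, against 43.2, 54.0 and 44.7 CPM in the control libraries. This was a shallower difference than that of Mrc1, with 59.1% of the control level left in the knockout (log2 -0.76, SE 0.17, adjusted p = 0.0369), and its control libraries were even. The Cd68 call was lost in each of the 6 fits with 1 library left out, with adjusted p from 0.0553 to 0.117.

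The other receptors of this class did not pass. Msr1, the class A scavenger receptor, had 1.70, 1.06 and 0.614 CPM in the knockout libraries, against 2.73, 5.29 and 3.03 CPM in the control libraries (adjusted p = 0.0600). Cd163, which clears haemoglobin bound to haptoglobin, had 0.345, 0.744 and 0.0898 CPM in the knockout libraries, against 1.08, 1.84 and 0.876 CPM in the control libraries. Both kept the 2 groups apart. Cd14, a coreceptor for bacterial lipopolysaccharide, stood out from them with 7.73, 7.62 and 6.53 CPM in the knockout libraries, against 5.68, 7.40 and 10.9 CPM in the control libraries. Its groups overlapped, its knockout mean was 91.3% of control (log2 -0.13, SE 0.252, adjusted p = 0.800), and its sign was negative in 10 of the 14 alternative analyses.

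Ptprc encodes CD45, the tyrosine phosphatase on the surface of nearly all leukocytes, and lies on chromosome 1 at 138062861 to 138175306. It had 18, 4 and 0 counts in the knockout libraries, against 19, 118 and 16 counts in the control libraries. On the CPM scale this was 0.345, 0.0634 and 0 in the knockout libraries, against 0.320, 2.19 and 0.280 in the control libraries. The groups overlapped, since knockout replicate 1 exceeded control replicates 1 and 3, and the difference of -2.79 had a wide error (SE 1.39, adjusted p = 0.270). Control replicate 2 thus held most of the control counts of Ptprc.

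The integrin chains and other surface proteins were low in abundance. Itgb2 (CD18), the beta chain of leukocyte integrins, had 3.10, 2.52 and 2.22 CPM in the knockout libraries, against 5.04, 5.47 and 3.92 CPM in the control libraries. Its groups did not overlap, and the difference of -0.88 did not pass (SE 0.236, adjusted p = 0.0638). Itgam (CD11b), its partner in complement receptor 3, had 0.134, 0.301 and 0.0599 CPM in the knockout libraries, against 0.202, 1.09 and 0.315 CPM in the control libraries. The gene model of Itgam overlaps Gm49368 on the same strand, so its counts are uncertain. The tetraspanin Cd53 had 1.32, 1.17 and 1.11 CPM in the knockout libraries, against 1.70, 5.42 and 2.72 CPM in the control libraries (adjusted p = 0.0906). Cd84, a self-binding SLAM family receptor, had 1.07, 0.649 and 0.284 CPM in the knockout libraries, against 2.34, 6.81 and 3.08 CPM in the control libraries. It fell to 16.4% of control (log2 -2.61, SE 0.598, adjusted p = 0.0397) and lost its call in each fit with 1 library left out, with adjusted p from 0.0539 to 0.116.

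A set of 5 genes had 0 counts in all 3 knockout libraries and 12 or more counts in every control library. Clec12a, an inhibitory C-type lectin of myeloid cells on chromosome 6 at 129342691 to 129364416, had 0 counts in the knockout libraries, against 27, 40 and 41 counts in the control libraries. Against a floor of 3 counts over the knockout group it was at least 38.5-fold lower (adjusted p = 0.0159). That floor, also used for the other genes of this set, covers counting error only. Fcgr3, with 127, 84 and 0 counts in the knockout libraries, varied by more than counting error. Wdfy4, needed for cross-presentation of antigen in dendritic cells, lies on chromosome 14 at 32959547 to 33185508. It had 0 counts in the knockout libraries, against 35, 39 and 42 counts in the control libraries, and was at least 41.4-fold lower (adjusted p = 0.0129). Its model overlaps Lrrc18 on the opposite strand, which had 0, 25 and 8 counts in the knockout libraries, against 12, 14 and 0 counts in the control libraries. Both passed the filter through the control libraries alone, so their p-values carry that selection and support nothing by themselves. Without control replicate 2 or control replicate 3 both calls were lost, at adjusted p up to 0.0678 for Clec12a and 0.0597 for Wdfy4, and with the replicate block the adjusted p were 0.0994 and 0.0943.

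The other 3 genes of this set were fewer in reads. Gpr65, a proton-sensing receptor on chromosome 12 at 98268635 to 98276644, had 0 counts in the knockout libraries, against 19, 26 and 19 counts in the control libraries, and was at least 22.8-fold lower (adjusted p = 0.0264). Cd22, a sialic acid-binding inhibitory receptor best known from B cells, lies on chromosome 7 at 30865402 to 30880342. It had 0 counts in the knockout libraries, against 16, 30 and 18 counts in the control libraries, and was at least 22.8-fold lower (adjusted p = 0.0300). The B cell genes Cd79a and Cd79b had 0 counts in all 6 libraries. Was, which encodes the Wiskott-Aldrich syndrome protein of blood cell actin on chromosome X at 8081453 to 8090498, had 0 counts in the knockout libraries, against 19, 15 and 12 counts in the control libraries. It was at least 16.4-fold lower (adjusted p = 0.0369). Like Clec12a and Wdfy4, these 3 genes passed the filter through the control libraries alone, so their p-values support nothing by themselves. Their calls were lost in every fit with 1 library left out, with adjusted p from 0.0567 to 0.1251. Control replicate 2 was highest of the control libraries for Cd22, Clec12a and Gpr65, but the 3 control libraries of Wdfy4 and Was lay within 1.25-fold and 1.52-fold of each other.

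Adgre1 encodes F4/80, the classic surface marker of mouse macrophages, and lies on chromosome 17 at 57358691 to 57483527. It had 2.66, 0.760 and 0.539 CPM in the knockout libraries, against 2.78, 13.2 and 5.06 CPM in the control libraries. Knockout replicate 1 and control replicate 1 nearly met, and the difference of -2.42 did not pass (SE 0.777, adjusted p = 0.107). Cx3cr1, the fractalkine receptor, had 4, 2 and 4 counts in the knockout libraries, against 6, 8 and 8 counts in the control libraries. That was too low to test, and its gene model runs across several neighbouring genes, so these reads are uncertain.

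Lyz2, which encodes lysozyme M, and Ctss, which encodes the protease cathepsin S, are both lysosomal enzymes of phagocytes. Per transcript length, Lyz2 averaged 21.1 FPKM in knockout and 76.6 FPKM in control libraries, and Cd68 averaged 20.6 FPKM in knockout and 32.6 FPKM in control libraries. Ctss averaged 2.24 FPKM in knockout and 12.3 FPKM in control libraries, and Cd14 averaged 3.91 FPKM in knockout and 3.99 FPKM in control libraries. Lyz2 had 45.4, 31.6 and 12.5 CPM in the knockout libraries, against 59.7, 205 and 82.9 CPM in the control libraries. The groups did not overlap, and the difference of -1.96 on the log2 scale did not pass (SE 0.588, adjusted p = 0.0890). Its near copy Lyz1 had 6, 4 and 0 counts in the knockout libraries, against 0, 12 and 0 counts in the control libraries. How reads shared by the 2 genes were counted is not given, so the Lyz2 counts are uncertain to that extent. Ctss had 5.86, 3.25 and 0.763 CPM in the knockout libraries, against 10.4, 33.3 and 13.9 CPM in the control libraries (log2 -2.55, SE 0.737, adjusted p = 0.0802). Its model overlaps Hmgb1-ps5 on the same strand, which makes its counts uncertain.

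The other genes of the lysosome and the phagocyte membrane gave 3 calls. Mpeg1, the pore-forming perforin-2 on chromosome 19 at 12460779 to 12465283, had 5.61, 4.58 and 2.14 CPM in the knockout libraries, against 10.7, 27.2 and 14.2 CPM in the control libraries. It fell to 23.7% of control (log2 -2.08, SE 0.457, adjusted p = 0.0351), and the call held in 1 of 6 fits with 1 library left out, the one without control replicate 1, with adjusted p from 0.0458 to 0.0928. Ms4a7, a four-pass membrane protein of macrophages, lies on chromosome 19 at 11321039 to 11336144. It had 0.842, 0.586 and 0.329 CPM in the knockout libraries, against 1.87, 5.16 and 2.19 CPM in the control libraries, and fell to 19.1% of control (log2 -2.39, SE 0.535, adjusted p = 0.0368). Laptm5, a lysosomal membrane protein of blood cells, had 3.08, 1.62 and 0.988 CPM in the knockout libraries, against 5.60, 16.9 and 6.57 CPM in the control libraries, and fell to 19.6% of control (adjusted p = 0.0467). The groups were apart for all 3 genes. Ms4a7 and Laptm5 lost their calls in each of the 6 fits, with adjusted p up to 0.105 and 0.121. Cybb, the catalytic subunit of the phagocyte NADPH oxidase, had 1.19, 0.348 and 0.269 CPM in the knockout libraries, against 0.995, 3.45 and 1.19 CPM in the control libraries, which overlapped and did not pass (adjusted p = 0.221).

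Among the actin regulators of blood cells, Was fell and the others did not pass. Lcp1, the actin-bundling L-plastin on chromosome 14 at 75131101 to 75230842, had 3.10, 1.84 and 0.659 CPM in the knockout libraries, against 3.74, 12.5 and 7.32 CPM in the control libraries (log2 -2.08, SE 0.627, adjusted p = 0.0900). Its groups did not overlap, though replicates 1 were close. Coro1a, which encodes the actin-binding coronin 1A, had 0.766, 0.903 and 0.943 CPM in the knockout libraries, against 1.05, 0.482 and 1.72 CPM in the control libraries. Its groups overlapped (log2 -0.31, SE 0.495, adjusted p = 0.755), and control replicate 2, highest for most markers, was the lowest of all 6 libraries here. Aif1 (IBA1), a calcium-binding protein of macrophages and microglia, had 0 counts in the knockout libraries, against 0, 0 and 19 counts in the control libraries.

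The markers had different profiles across libraries. Within the knockout libraries, Ctss spanned 7.67-fold, Cd163 8.29-fold, Tyrobp 5.79-fold, Adgre1 4.94-fold and Lyz2 3.63-fold between the highest and lowest. Csf1r and Spi1 spanned 1.31-fold each, Cd14 and Cd53 1.19-fold each and Itgb2 1.40-fold over the same libraries. By role the group sums were as follows, with no test between roles. Summed CPM in knockout libraries was 18.3% of control for the seven-pass receptors, 24.1% for the lysosomal and membrane proteins, 28.4% for the Fc receptors, TREM2 and adaptors, and 29.4% for the actin regulators. The figure was 32.6% for Csf1r with Spi1, 32.6% for the integrins and surface proteins, and 51.4% for the scavenger and pattern recognition receptors, a group that holds Cd68 and Cd14. Without control replicate 2, a setting added after the data were seen, these shares were 31.5% for the seven-pass receptors, nearly all of it Adgre1, 38.4% for the lysosomal and membrane proteins and 43.9% for the Fc receptor group. They were 37.3% for the actin regulators, 41.7% for Csf1r with Spi1, 44.1% for the integrins and surface proteins and 59.0% for the scavenger group, so the order of the roles moved with that library.

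Other genes of the macrophage programme were read from a list of 49, of which 37 could be tested. In that list 13 fell and 1 rose, beside 5.18% lower and 4.11% higher over all genes tested. The median log2 fold change of the list was -2.13. Mmp12, the macrophage elastase, had 0.249, 0.760 and 0.419 CPM in the knockout libraries, against 9.21, 11.6 and 11.2 CPM in the control libraries, and fell by 4.47 on the log2 scale (SE 0.404, adjusted p = 0.00332). Pla2g7, the plasma platelet-activating factor hydrolase, had 3.04, 2.77 and 2.87 CPM in the knockout libraries, against 7.98, 12.98 and 8.50 CPM in the control libraries (adjusted p = 0.00810). Mmp12 and Pla2g7 held their calls in all 6 fits with 1 library left out, and their groups did not overlap. Control replicate 2 had 1.26 times the Mmp12 level of control replicate 1, and 1.63 times the Pla2g7 level. The median over 25 markers was 3.02 times, and C1qa, described below, stood at 3.19 times. Which cells made the Mmp12 and Pla2g7 RNA was not tested.

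Complement C1q is made by macrophages from the genes C1qa, C1qb and C1qc. C1qa fell, with 2.45, 2.20 and 0.479 CPM in the knockout libraries, against 6.78, 21.6 and 11.4 CPM in the control libraries (adjusted p = 0.0374, lost in each fit with 1 library left out, up to 0.109). C1qb fell too (log2 -2.85, adjusted p = 0.0327, held in 1 of 6 such fits, up to 0.0892), and C1qc did not pass (log2 -2.22, adjusted p = 0.0678). Gpnmb, a glycoprotein of macrophages that mesenchymal cells also make, was the most abundant gene of the list and its groups overlapped, with 1542, 915 and 1029 CPM in the knockout libraries, against 1219, 1047 and 1161 CPM in the control libraries (log2 0.02, SE 0.194, adjusted p = 0.959). Havcr2, which encodes the checkpoint receptor TIM-3, rose, with 6.01, 5.69 and 7.47 CPM in the knockout libraries, against 2.80, 2.10 and 1.79 CPM in the control libraries (log2 1.52, adjusted p = 0.0131). Its call was lost without control replicate 2 (adjusted p = 0.0526).

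From 31 further signalling genes shared by leukocytes, 25 could be tested, 4 fell and 1 rose, beside 5.18% lower and 4.11% higher over all genes. The adaptor Lcp2 (SLP-76) had 13.4, 20.4 and 6.42 CPM in the knockout libraries, against 38.5, 44.5 and 35.9 CPM in the control libraries, and fell (log2 -1.57, SE 0.373, adjusted p = 0.0448). Its control libraries lay within 1.24-fold of each other, and which cells made its RNA was not tested. Pik3ap1, Inpp5d and Alox5ap fell as well, the first 2 with adjusted p of 0.0329 and 0.0386 and with calls held only without control replicate 1. Arhgdib, a GDP dissociation inhibitor of blood cells and the most abundant gene of this list, averaged 153 CPM in knockout and 121 CPM in control libraries and did not pass (adjusted p = 0.254). Syk, the kinase that binds phosphorylated ITAM adaptors, went the other way, with 17.6, 12.4 and 19.6 CPM in the knockout libraries, against 7.22, 7.57 and 3.42 CPM in the control libraries (log2 1.45, SE 0.327, adjusted p = 0.0380). The adaptors it binds, Tyrobp and Fcer1g, had negative fold changes that did not pass. The Lcp2 and Syk calls each held in 2 of 6 fits with 1 library left out, and the highest adjusted p were 0.139 for Lcp2 and 0.113 for Syk.

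**Figure D4:**
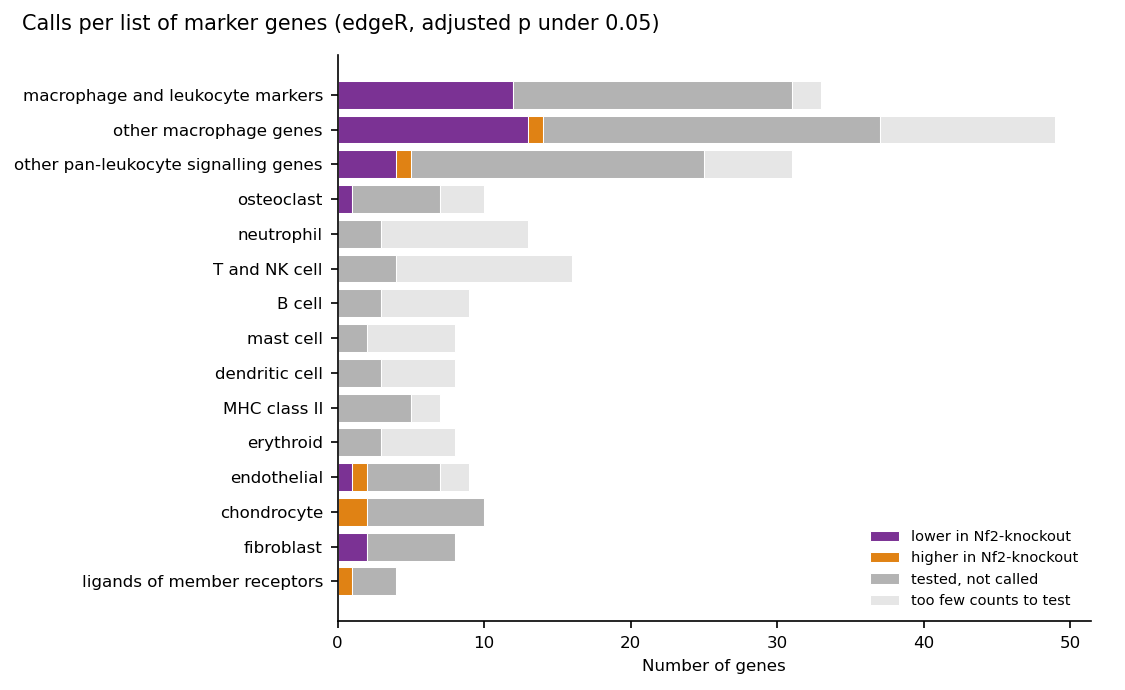
Number of genes that fell, rose, did not pass or were not tested in Nf2-knockout against control, for the marker genes and for each companion list of other cell types. Of the markers 12 genes fell and of the other macrophage genes 13, while the neutrophil, lymphoid, mast cell, dendritic cell, MHC class II and erythroid lists hold no call. Among all genes tested, 5.18% fell and 4.11% rose.

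Markers of other blood cells were mostly at 0 or low. Of 13 neutrophil genes, 3 could be tested and 4, with S100a9 among them, had 0 counts in all 6 libraries. Of 16 T and NK cell genes, 4 could be tested and 9 had 0 counts in every library, including Cd3d, Cd3e and Cd3g. Of 9 B cell genes, 3 could be tested and 4 were at 0 throughout. The lists of mast cells (8 genes, 4 at 0) and dendritic cells (8 genes, 3 at 0) had 2 and 3 tested genes. No gene of these 5 lists passed by edgeR's test, beside 9.29% of all genes tested, and the lists hold few tested genes. At an unadjusted p below 0.05 there was 1 neutrophil, 1 mast cell and 1 dendritic cell gene. The neutrophil list summed to 1.32 to 2.16 CPM in the knockout libraries and 2.63 to 3.89 CPM in the control libraries, and the T and NK cell list to 3.85 to 5.64 CPM in knockout and 2.99 to 4.77 CPM in control libraries. Ebf1, which stromal cells also use, made up most of the B cell list. Cd74, the invariant chain of MHC class II, had 0.153, 0.0950 and 0.195 CPM in the knockout libraries, against 0.0843, 0.408 and 0.350 CPM in the control libraries. The MHC class II list as a whole went the other way, at 132.5% of control. It summed to 16.79 to 18.76 CPM in the knockout libraries and 11.72 to 15.98 CPM in the control libraries. H2-DMb1 and H2-DMa, its most abundant genes, had higher means in the knockout libraries. None of the 5 tested MHC class II genes passed, and 2 of them had a negative log2 fold change.

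Among cells of cartilage and its surroundings, 2 of 10 chondrocyte genes rose, Col2a1 and Cytl1, and 2 of 8 fibroblast genes fell, Lum and Pdgfra. Of all genes tested, 4.11% rose and 5.18% fell. The growth factor receptor Pdgfra had 204, 275 and 209.6 CPM in the knockout libraries, against 591, 629.8 and 626 CPM in the control libraries (adjusted p = 0.00332). Lum, a proteoglycan of collagen matrix, had 751, 1314 and 445 CPM in the knockout libraries, against 2562, 2991 and 3089.5 CPM in the control libraries (adjusted p = 0.0264). The Lum call held in 2 of 6 fits with 1 library left out and that of Col2a1 in 1 of 6, with adjusted p up to 0.104 for Lum and 0.129 for Col2a1. The fibroblast list as a whole summed to 7852, 9921 and 8632 CPM in the knockout libraries, against 11325, 12739 and 14663 CPM in the control libraries. Its lower sum moved with the marker genes between groups but not with their order within the control libraries, where replicate 3 was highest. Whether it bears on the marker levels was not tested. Among 9 endothelial genes 7 could be tested, of which Plvap fell and Kdr rose (held in 2 of 6 fits with 1 library left out, adjusted p up to 0.0698). Erythroid genes numbered 8 in the table, of which 3 could be tested and none passed.

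Osteoclasts descend from the same myeloid precursors and also need CSF1R. Of 10 osteoclast genes, 7 could be tested and 1 fell, beside 5.18% of all genes tested. Atp6v0d2, a subunit of the proton pump, had 6.49, 5.18 and 3.62 CPM in the knockout libraries, against 19.0, 14.7 and 14.3 CPM in the control libraries (log2 -1.65, SE 0.242, adjusted p = 0.0102), and held in all 6 fits with 1 library left out. It was highest in control replicate 1, the lowest control library for most markers, and which cells made its RNA was not tested. Mmp9 had 0.498, 1.03 and 0 CPM in the knockout libraries, against 8.60, 7.14 and 9.53 CPM in the control libraries, and missed the threshold (adjusted p = 0.0521). Ocstamp had 0 counts in the knockout libraries, against 24, 7 and 8 counts in the control libraries, and Dcstamp and Calcr had 0 counts in all 6. Ctsk (cathepsin K), which chondrocytes and fibroblasts also make, had 1452, 1185 and 965 CPM in the knockout libraries, against 959.8, 949.9 and 1288 CPM in the control libraries and did not pass. Acp5 averaged 84.6 CPM in knockout and 64.8 CPM in control libraries and did not pass either (adjusted p = 0.274).

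The ligands of the marker receptors were made in both groups. Csf1, the growth factor for CSF1R, had 654, 682 and 806 CPM in the knockout libraries, against 381, 312 and 369.99 CPM in the control libraries. Every knockout library exceeded every control library, and Csf1 rose by 1.01 on the log2 scale (SE 0.12, adjusted p = 0.00569), a call held in all 6 fits with 1 library left out. Il34, the second CSF1R ligand, had 34.4, 27.9 and 32.9 CPM in the knockout libraries, against 23.0, 24.9 and 28.2 CPM in the control libraries, and did not pass (log2 0.32, SE 0.127, adjusted p = 0.174). The transcript of the receptor Csf1r thus fell while that of its ligand Csf1 rose. Cx3cl1, the ligand of CX3CR1, had 77.1, 81.4 and 32.0 CPM in the knockout libraries, against 70.2, 17.3 and 47.5 CPM in the control libraries, with overlap (adjusted p = 0.625). Icam1, bound by the integrins that hold Itgb2, averaged 95.3 CPM in knockout and 96.0 CPM in control libraries (adjusted p = 0.978).

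**Figure D5:**
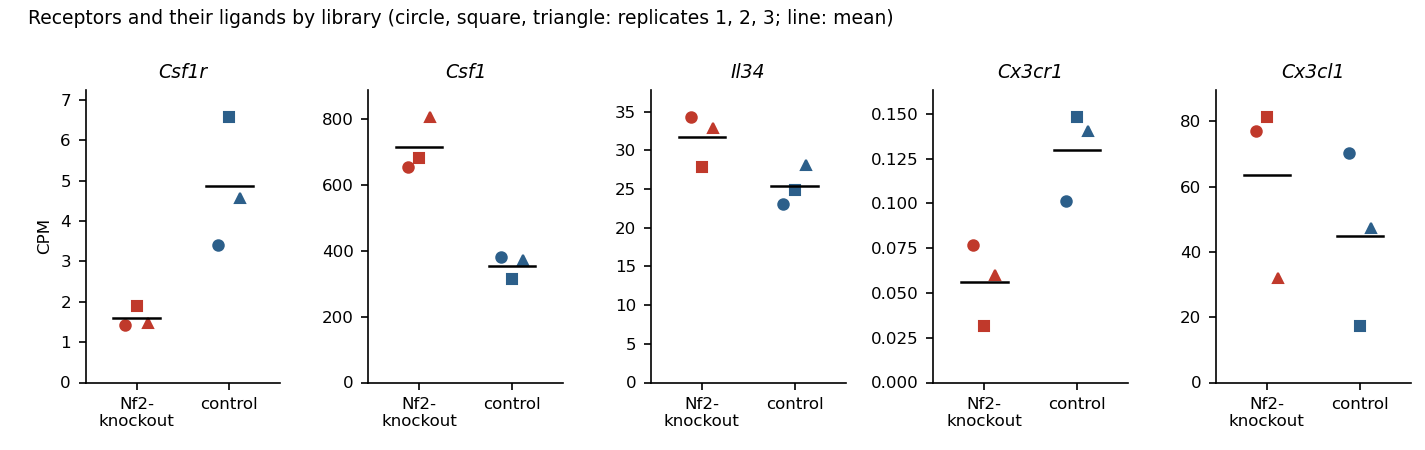
CPM of the receptor gene Csf1r, its ligand genes Csf1 and Il34, the receptor gene Cx3cr1 and its ligand gene Cx3cl1 in each library, with Nf2-knockout left of control. Points are libraries and bars are group means. Csf1 lies at 654 to 806 CPM in the knockout libraries, all above the control libraries, while Csf1r lies below them.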

How the data were processed

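Poly(A) RNA of cultured mouse chondrocytes was sequenced in 3 Nf2-knockout and 3 control libraries, and 1 table of the whole series was used. It holds read counts per gene as deposited by the authors, unnormalized, and FPKM values that the authors scaled for gene length and depth. The submitters' processing notes list StringTie 1.3.4d, edgeR, cutadapt 1.9 and the aligner HISAT2 2.0.4 with no order of steps, and the counting method and strandedness are not given in the sources used here. Gene positions are those of the table, and 94.2% of them equal GENCODE M21 positions on GRCm38. Among the 33 markers 23 did, and the positions given above for Csf1r, Spi1, Tyrobp, Ptprc, Clec12a and Ms4a7 did not. A library in which a gene has 0 counts is listed at 0.0001 FPKM.

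The marker genes, gene lists and tests were chosen with earlier results of these data known. Libraries were grouped by their titles. The test was edgeR's quasi-likelihood test (edgeR 4.0.16, R 4.3.3; filterByExpr with a minimum count of 10, TMM, two-sided) over 18218 genes with Benjamini-Hochberg adjustment at 0.05. CPM values use TMM-scaled library sizes. No set test was run. Alternatives were DESeq2 1.42.0, its size factors in edgeR, library totals alone, no filter, a replicate block, limma-trend 3.58.1 on log2(FPKM + 0.1) or log2(FPKM + 1), and leaving out each library. Genes with 0 counts in a group are compared with a floor of 3 counts over that group, which covers counting error only. Totals of 50906043 to 63748798 counts set the precision, so that 1 read is a small fraction of 1 CPM. Full statistics are given for Csf1r, Adgre1, Spi1, Ptprc and the 2 genes with the smallest p in each role group, and in the macrophage, signalling, osteoclast and ligand lists for the 2 most abundant tested genes and up to 3 called genes with the smallest p. Genes of those lists outside this rule were picked after their values were seen. Promoters came from RefSeq. Some genes of the companion lists are counted but not reported here by name. A planned search for ITAM motifs in the proteins was not run here. The edgeR fit was tested on simulated data.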

Additional observations from a re-analysis of the deposited data

How the results depend on the processing

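The markers were lower in knockout than in control libraries, by the median of their fold changes, under each of the 14 alternatives, and 0 rose in any, while the number of calls moved with the method. Against 12 markers that fell, DESeq2 gave 20, limma-trend on FPKM 3 (pseudocount 0.1), 0 (pseudocount 1, with 18 at an unadjusted p below 0.05) and 4 (no filter), and fits without 1 library 0 to 5, with 0 of 31 without control replicate 2 or without control replicate 3. The 4 were Clec12a, Gpr65, Was and Wdfy4, whose knockout libraries all stand at 0.0001 FPKM for 0 counts and so have no spread. Gpr65 was also among the 3. Over all genes, limma-trend gave 607 of 18157 lower with pseudocount 1 and 394 of 27103 lower with no filter. The median of -2.18 became -1.34, -0.49 and -1.09 in the limma-trend fits, where a pseudocount shrinks low genes, and -2.57 to -1.57 without 1 library. The summed level of 32.0% of control ran from 26.2% to 45.4%, the highest without control replicate 2. Of the other macrophage genes 13 fell, against 22 with DESeq2, 7 and 3 in limma-trend with pseudocount 1 and with no filter, and 4 to 11 without 1 library. Of the other leukocyte signalling genes 4 fell, against 13 with DESeq2, 2 with no filter on low counts, 0, 2 and 0 in limma-trend (pseudocount 0.1, 1 and no filter), and 0 to 3 without 1 library. Nf2, at -0.41, was -0.31 with library totals alone (adjusted p = 0.0713), -0.31, -0.29 and -0.31 in the limma-trend fits, and -0.45 to -0.34 without 1 library (adjusted p = 0.0518 to 0.123). Over all tested genes, same-numbered libraries did not deviate together from their group means (correlations of -0.0895, 0.0296 and 0.0234 for numbers 1 to 3). That check cannot show whether they shared an animal or a preparation. With the replicate block 2 markers, 6 other macrophage genes and 1 leukocyte signalling gene fell, and Nf2 was -0.41 (adjusted p = 0.0695). Apart from values the construction of a setting explains, the cause of each change was not tested. Genes under about 0.166 CPM could not be tested at this depth.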
